A study of Saccharomyces cerevisiae with 6 samples.

Results

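The genes COS1 to COS10 belong to a family of related genes of budding yeast that lie close to the chromosome ends. They were taken by name, COS1 (YNL336W), COS2 (YBR302C), COS3 (YML132W), COS4 (YFL062W), COS5 (YJR161C), COS6 (YGR295C), COS7 (YDL248W), COS8 (YHL048W), COS9 (YKL219W) and COS10 (YNR075W). Of these 10 genes, 8 had a row among the 6277 genes of the expression table. COS2 and COS3 had none, and their RNA was not analysed here.

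Cos proteins are membrane proteins of endosomes. They help to sort ubiquitin-tagged cargo of the plasma membrane into multivesicular bodies, from which the cargo reaches the vacuole and is degraded, and they can be ubiquitinated themselves. Genes in the regions next to telomeres are a known site of silencing by Sir proteins. Rrp6 is an exoribonuclease of the nuclear RNA exosome, the complex that trims and degrades RNA from its 3′ end with the help of the TRAMP complex.

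Ribosomal RNA-depleted total RNA was sequenced from 3 strains of Saccharomyces cerevisiae, with 2 libraries per strain and 6 in all. Every strain was a BY4741/4743 derivative deleted for the chromosomal RRP6 and MTR4 genes (rrp6Δ mtr4Δ), kept alive by wild-type MTR4 on 2 plasmids (pRS416 and pRS415), and differed in the plasmid pRS413. It carried RRP6 in the strain called WT, the exonuclease-inactive D238N allele in Rrp6exo-, and no RRP6 in rrp6Δ. Individual clones were grown at 30 °C to mid-log phase in medium lacking histidine, leucine and uracil, so the WT strain is a plasmid-complemented deletion and not an unmodified one. The levels below are scaled counts, which are read counts per gene divided by 1 size factor per library.

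The libraries held between 34.2 and 39.5 M reads on genes. RRP6 had scaled counts of 19503 and 21626 in WT, 18538 and 21173 in Rrp6exo-, and 4.17 and 8.33 in rrp6Δ, in accord with the labels, whereas MTR4 lay between 58489 and 77818 in all 6. The plasmid marker HIS3 was lower in both mutants than in WT, with log2 differences of -0.92 in Rrp6exo- and -0.56 in rrp6Δ (limma with the replicate number as a block, adjusted p = 0.0062 and 0.030). LEU2, the marker of an MTR4 plasmid, was lower too, at -0.35 and -0.38 (adjusted p = 0.046 and 0.039 in the same fit). In limma without the block neither passed (adjusted p = 0.068 and 0.15 for HIS3, 0.19 and 0.18 for LEU2). DESeq2 without the block called both markers in each mutant, with adjusted p of 0.031 or less. URA3, the marker of the other MTR4 plasmid, was at -0.28 and -0.35. It did not pass in limma with the block (adjusted p = 0.14 and 0.085). The part of these markers in the results below was not tested.

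All 10 genes lay in the outer part of a chromosome in the R64 assembly (sacCer3), each as 1 uninterrupted coding sequence of 1125 to 1224 bases, and no other annotated RefSeq gene overlapped any of them. COS2 was the closest to a chromosome end, at 1705 bases (chrII:810340-811479, minus strand), followed by COS5 at 1752 bases (chrX:742848-743999, minus strand) and COS7 at 1801 bases (chrIV:1802-2953, plus strand). COS10 lay 3293 bases from the end of its chromosome (chrXIV:779916-781040, plus strand). COS8 (chrVIII:6401-7546, plus strand), COS4 (chrVI:6426-7565, plus strand), COS3 (chrXIII:7244-8383, plus strand), COS6 (chrVII:1081584-1082729, minus strand) and COS1 (chrXIV:8330-9475, plus strand) lay between 6400 and 8329 bases away. COS9 was the farthest, at 14484 bases (chrXI:14485-15708, plus strand). Transcription ran away from the nearer chromosome end in 9 of the 10 genes, and COS10 was the 1 exception.

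The coding sequences fell into a group of near copies and 2 relatives. COS1 to COS8 were 83.0% to 100% identical to one another, COS9 was 70.0% to 70.8% identical to these 8 genes, and COS10 was 62.3% to 65.2% identical to them. COS2 and COS3 were the same over the whole coding sequence and over the 250 bases before it. In those 250 bases COS1, COS2, COS3, COS5 and COS8 were 98.4% to 100% identical, COS7 was 94.4% to 95.2% identical to these 5, and COS4 and COS6 were 90.4% to 91.2% and 90.8% identical to them. COS9 and COS10 were at 52.8% to 54.8% and 53.6% to 56.4% against COS1 to COS8 over the same stretch. For COS9 this stretch ends at the annotated start codon, which lies 25 codons before an in-frame ATG. Both identities of COS9 depend on that annotation.

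**Figure D1:**
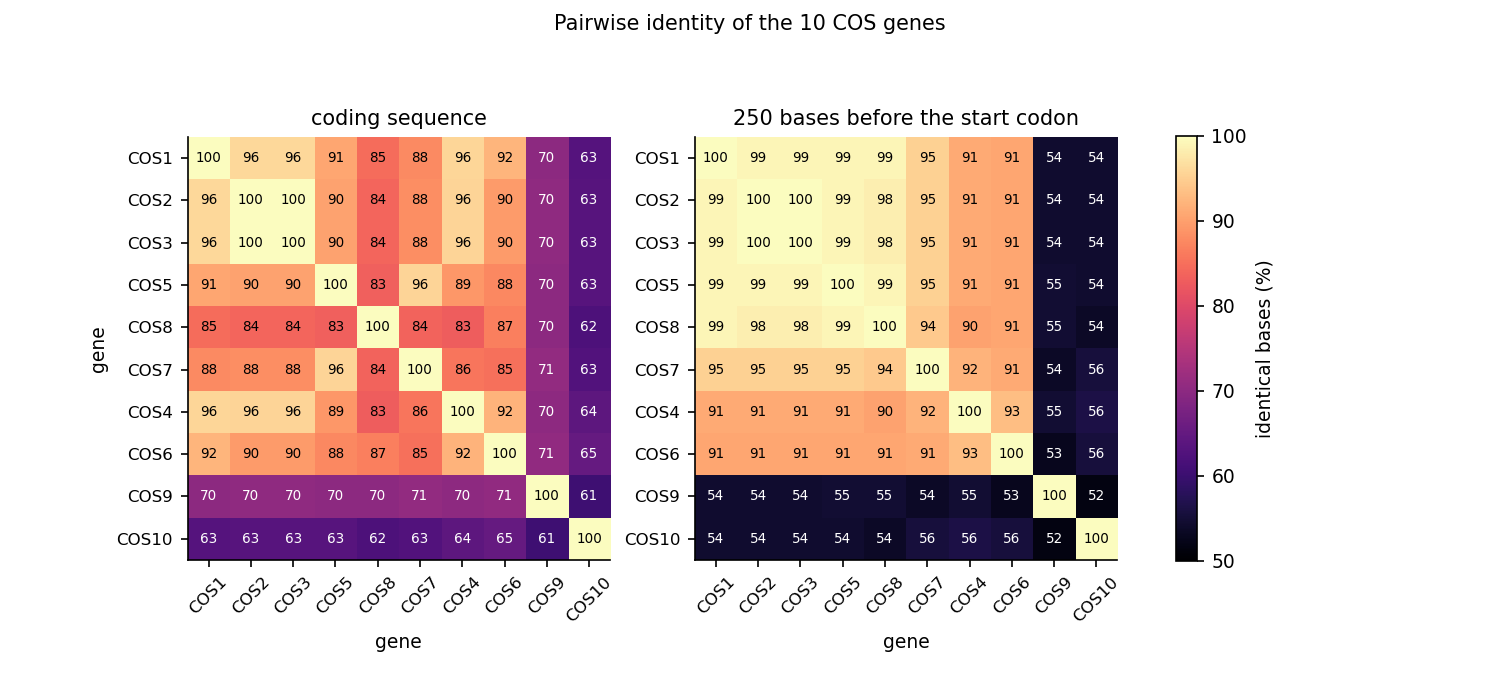
Percentage of identical bases (colour and printed value) between each pair of the 10 COS genes, over the coding sequence on the left and over the 250 bases before the start codon on the right, from global alignments of RefSeq sequence (R64). COS1 to COS8 form 1 block in both panels, and COS9 and COS10 stand apart, more so before the annotated start codon than within the coding sequence. The annotated start of COS9 lies 25 codons before an in-frame ATG, and identity counted from that ATG was not computed.

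The stretch before the start codon is shown for COS4, COS6 and COS10, which passed some of the tests below but not the main one. COS1 and COS7 are shown beside them. The part of this stretch in any difference between strains was not tested. Each line below runs 5′ to 3′ on the coding strand from 110 bases before the start codon to its last base, is taken from RefSeq (R64), and has the letters TATAAA, the core of a TATA box, in capitals. COS2 and COS3 had 0 differences from COS1 over the 110 bases, COS5 had 1 and COS8 had 2, so COS1 stands for these 5 genes.
COS1 (chrXIV:8220-8332, plus strand): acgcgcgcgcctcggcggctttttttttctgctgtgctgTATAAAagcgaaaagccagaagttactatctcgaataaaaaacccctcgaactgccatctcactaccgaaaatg
COS7 (chrIV:1692-1804, plus strand): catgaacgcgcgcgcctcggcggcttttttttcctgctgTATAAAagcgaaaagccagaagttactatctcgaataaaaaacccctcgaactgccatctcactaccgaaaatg
COS4 (chrVI:6316-6428, plus strand): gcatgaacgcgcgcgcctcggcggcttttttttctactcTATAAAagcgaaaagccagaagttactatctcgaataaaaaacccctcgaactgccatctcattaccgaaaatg
COS6 (chrVII:1082727-1082839, minus strand): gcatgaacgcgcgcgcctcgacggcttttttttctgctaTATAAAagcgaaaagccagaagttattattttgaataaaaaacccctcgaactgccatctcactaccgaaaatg
COS10 (chrXIV:779806-779918, plus strand): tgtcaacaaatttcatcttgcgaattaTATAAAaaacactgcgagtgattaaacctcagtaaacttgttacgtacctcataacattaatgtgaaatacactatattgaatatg
COS1, COS7, COS4 and COS6 carry TATAAA at the same distance, its first base being 71 bases before the start codon, and the letters after it are shared but for a few bases. COS10 has it at 83 and 142 bases before the start codon, within a sequence that is otherwise unlike the others.

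COS9 is annotated with a start codon that lies 25 codons before an in-frame ATG, which begins at base 76 of its coding sequence. The line below gives the stretch from 35 bases before the annotated start to the end of that second ATG, again with TATAAA in capitals, because it shows the family's start region within the annotated COS9 coding sequence.
COS9 (chrXI:14450-14562, plus strand): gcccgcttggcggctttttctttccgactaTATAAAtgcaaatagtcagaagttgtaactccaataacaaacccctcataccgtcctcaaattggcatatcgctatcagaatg
TATAAA begins 5 bases before the annotated start codon and overlaps it, and the last 3 bases are the second ATG. A further TATAAA begins 74 bases before the annotated start.

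TATAAA occurred on either strand in 10 of the 10 COS promoters, taken as the 250 bases before to 50 after the start codon, and in 45.2% of the 6001 promoters of that length. TTAGGG, the telomeric-repeat motif read by Tbf1, occurred in 0 of the 10 and in 6.85% of all promoters, and TTACCC, the core letters of the Reb1 motif, in 0 of the 10 and in 16.0%, each on either strand. No match of 1 of these motifs can also be a match of another, and since most COS promoters are near copies their matches are not independent. A match or its absence is a description of this window only.

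Near identity bears on what a read count of these genes can mean. The reads were 50 bases long, sequenced from both ends of a fragment, so each coding sequence was split into all its 50-base windows, and the places of each window in the genome were counted on both strands. None of the 1091 windows of COS2 or COS3 occurred once only, since each has the other as a copy. The share of windows found once was 17.0% in COS5, 27.7% in COS4, 28.9% in COS1, 33.4% in COS7, 61.7% in COS6, 82.6% in COS8, 99.1% in COS9 and 100% in COS10. For 200-base fragments, a stand-in for a read pair, the shares were 54.1% in COS5, 63.7% in COS7, 65.6% in COS1, 67.9% in COS4, 95.04% in COS6, 97.8% in COS8 and 100% in COS9 and COS10. The values of COS1, COS4, COS5 and COS7 are therefore uncertain, as is the split of their reads with COS2 and COS3, because the treatment of reads with several places is not given in the sources used here.

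**Figure D2:**
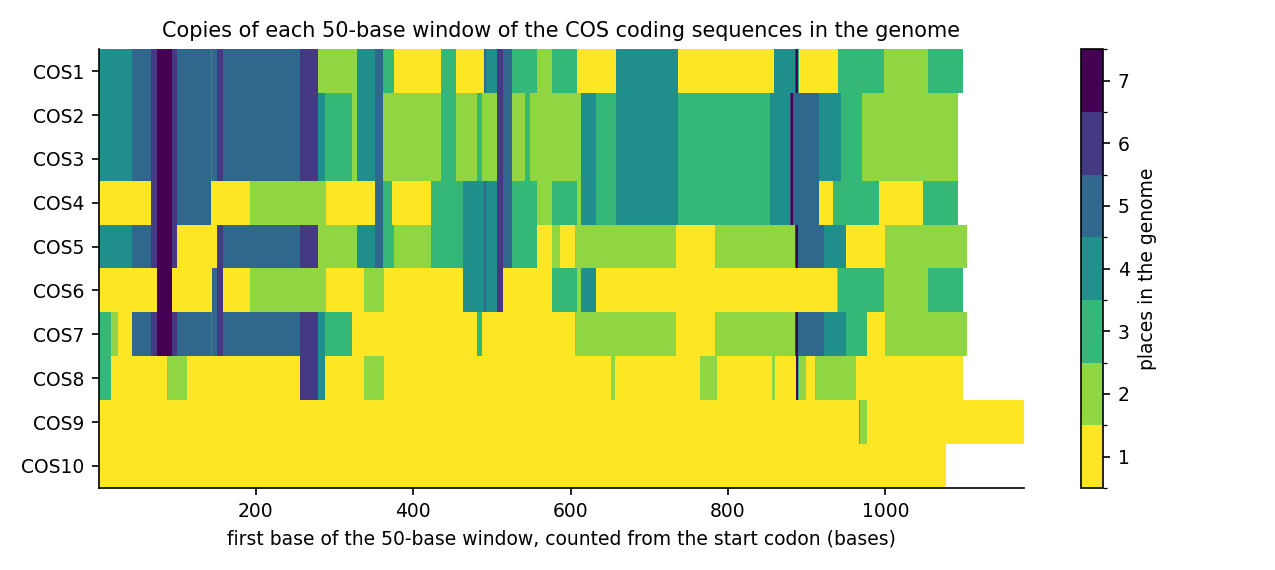
Number of places in the genome (colour, 1 to 7) of each 50-base window of the 10 COS coding sequences (rows), by the position of its first base from the start codon in bases. Yellow, a window found once, fills the whole of COS10 and nearly all of COS9 and is absent from COS2 and COS3. The darkest columns mark windows shared by 7 genes.

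The stretch shared most widely was 68 bases long, at bases 75 to 142 of COS1, and was the same in COS1 to COS7. A read from it, taken without the read from the other end of its fragment, cannot be given to 1 gene. By contrast, COS4 differed from COS3 at 49 of 1140 coding bases, and the 65-base stretch with the most of them, bases 210 to 274, held 9. The shared stretch is given first and then that of COS3 and COS4, with the differing bases in capitals, because COS4 is the member whose level differed most between strains and only such bases tell its reads from those of COS3.
Shared stretch (chrXIV:8404-8471, plus strand): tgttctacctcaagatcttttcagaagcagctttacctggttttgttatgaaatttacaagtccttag
COS3 (chrXIII:7453-7517, plus strand): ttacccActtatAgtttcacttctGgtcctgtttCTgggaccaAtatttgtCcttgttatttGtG
COS4 (chrVI:6635-6699, plus strand): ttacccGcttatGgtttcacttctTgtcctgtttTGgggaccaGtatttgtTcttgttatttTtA

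The levels of the 8 listed genes in WT spanned a wide range. Per kilobase of coding sequence, COS6 had the highest scaled count at 4401 ± 581 (SD, n = 2), followed by COS8 at 3332 ± 570, COS1 at 1388 ± 155, COS9 at 1260 ± 11.8, COS10 at 1232 ± 0.67, COS7 at 632 ± 143, COS5 at 513 ± 90.7 and COS4 at 88.9 ± 16.1. The order depends on the divisor. A gene with few windows of its own would collect fewer reads if reads with several places were left out. The handling of such reads is not given in the sources used here. Per window found once, the WT scaled counts were 7.45 ± 0.98 in COS6, 5.02 ± 0.56 in COS1, 4.22 ± 0.72 in COS8, 3.14 ± 0.56 in COS5, 1.98 ± 0.45 in COS7, 1.32 ± 0.01 in COS9, 1.29 ± 0.00 in COS10 and 0.34 ± 0.06 in COS4. COS6, also highest per fragment at 5.60 ± 0.74, was at the top and COS4, at 0.16 ± 0.03 per fragment, at the bottom on every scale. With 2 libraries per strain, the WT libraries of COS5 and COS7 overlapped per kilobase and those of COS1 and COS8 per window, and the other neighbours in the order did not overlap. COS5 and COS7 lay below COS9 and COS10 per kilobase and above them per window. Per 200-base fragment found once, COS5 (1.00 and 1.29 in the 2 WT libraries) and COS7 (1.01 and 1.39) lay below COS9 (1.52 and 1.495) and COS10 (1.497 and 1.498), and COS8 at 4.12 ± 0.71 lay above COS1 at 2.56 ± 0.29, the order seen per kilobase for these pairs. The place of these 6 genes in the order thus depends on the divisor.

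**Figure D3:**
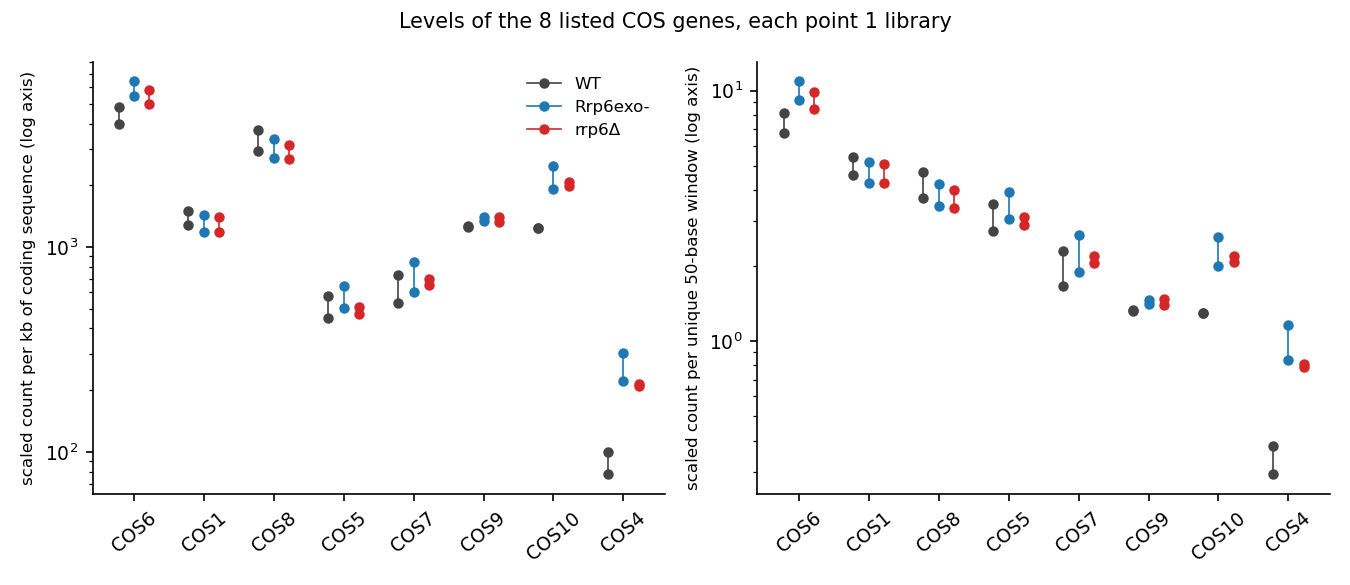
Level of each listed COS gene in each library on log axes, as scaled count per kilobase of coding sequence (left) and per 50-base window found once in the genome (right), with the points of 1 strain joined by a line. COS6 is the highest and COS4 the lowest on both scales, and COS10 lies level with COS9 in WT and above it in both mutants.

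Added over the 8 genes, the scaled count was 14802 ± 1770 (SD, n = 2) in WT, 17725 ± 2419 in Rrp6exo- and 16555 ± 1431 in rrp6Δ, with libraries of 13550 and 16053, 16014 and 19435, and 15543 and 17567. On this scale the strains overlapped, whereas each mutant library lay above the WT library of the same replicate number. As a share of all reads on genes the sum was 0.0349% and 0.0393% in WT, 0.0458% and 0.04999% in Rrp6exo-, and 0.0436% and 0.0490% in rrp6Δ, so on that scale both mutants lay above WT without overlap. That scale is not particular to COS genes. With libraries rescaled to the same total, the median log2 fold change of all genes against WT was 0.12 in Rrp6exo- and 0.16 in rrp6Δ. COS6 and COS8 together made up 56.6% to 61.0% of the COS sum in every library. COS4 made up 0.65% and 0.71% of it in the WT libraries and 1.35% to 1.79% in the 4 mutant libraries.

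The first comparison asked which COS RNAs differed when Rrp6 was present without its exonuclease activity. COS4, COS10 and COS6 had more RNA in both Rrp6exo- libraries than in either WT library. COS4, the least abundant member, had scaled counts of 88.4 and 114 in WT and 253 and 348 in Rrp6exo-. Its log2 fold change was 1.55 (SE 0.23), a 2.93-fold difference. COS10, the most diverged member by coding sequence, had 1386 and 1387 in WT and 2148 and 2794 in Rrp6exo-, a log2 fold change of 0.82 (SE 0.14) or 1.77-fold. COS6, the most abundant member, had 4572 and 5514 in WT and 6221 and 7382 in Rrp6exo-, a log2 fold change of 0.43 (SE 0.14) or 1.35-fold. For these 3 genes the strains did not overlap, and the difference was largest in the gene with the lowest level. In bulk RNA, more RNA in every cell and more cells with the RNA cannot be told apart.

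**Figure D4:**
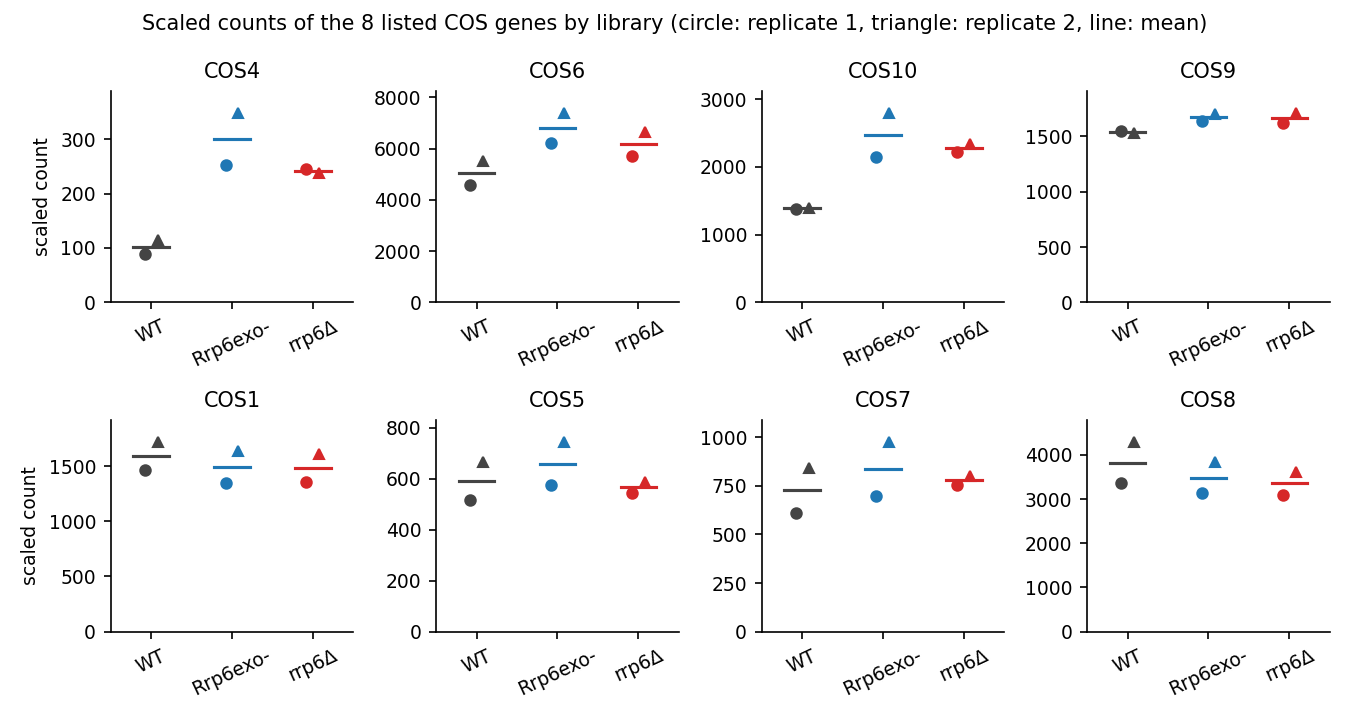
Scaled counts of the 8 listed COS genes in the 6 libraries, on linear axes from 0 with a scale for each gene. Circles are replicate 1, triangles replicate 2 and lines the mean of each strain. In the upper row (COS4, COS6, COS10 and COS9) all 4 mutant libraries lie above both WT libraries, and in the lower row (COS1, COS5, COS7 and COS8) the strains overlap.

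The other 5 listed genes moved less. COS9 had 1553 and 1533 in WT and 1643 and 1705 in Rrp6exo-, which do not overlap, but its log2 fold change was 0.12 with a 95% interval of -0.11 to 0.34. COS1 had 1465 and 1716 in WT and 1351 and 1642 in Rrp6exo-. COS8 had 3357 and 4281 in WT and 3126 and 3849 in Rrp6exo-. COS5 had 517 and 664 in WT and 577 and 743 in Rrp6exo-, and COS7 had 612 and 844 in WT and 696 and 973 in Rrp6exo-. The strains overlapped in these 4 genes, whose log2 fold changes ran from -0.13 in COS8 to 0.19 in COS7.

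In the fit of all 6 libraries by strain alone (limma on log2 of the scaled count plus 1, Benjamini-Hochberg adjustment over 6277 genes), 0 of the 8 COS genes passed an adjusted p of 0.05, beside 0.112% of all genes. The adjusted p was 0.071 for COS4, 0.093 for COS10 and 0.23 for COS6, and 3 of the 8 genes had an unadjusted p under 0.05, as did 17.0% of all genes. With the replicate number as a block, COS4 (adjusted p = 0.0036), COS10 (adjusted p = 0.0055) and COS6 (adjusted p = 0.0097) rose in limma, which is 3 of 8 higher beside 5.70% of all genes, and 0 of 8 were lower beside 7.04%. edgeR's quasi-likelihood test called 0 of 8 without the block (0.0956% of all genes) and 3 of 8 with it (12.7% of all genes in either direction). DESeq2 without the block called COS4 (adjusted p = 5.3e-06) and COS10 (adjusted p = 3.2e-05) higher, 2 of 8 beside 3.04% of all genes, and not COS6 (adjusted p = 0.091). Both Rrp6exo- libraries lay above both WT libraries in 4 of 8 COS genes beside 21.7% of all genes.

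The second comparison asked the same of a strain without Rrp6. COS4 had 245 and 238 in rrp6Δ against 88.4 and 114 in WT, a log2 fold change of 1.26 (SE 0.23) or 2.39-fold. COS10 had 2224 and 2339 in rrp6Δ against 1386 and 1387 in WT, a log2 fold change of 0.72 (SE 0.14) or 1.64-fold. COS6 had 5712 and 6666 in rrp6Δ against 4572 and 5514 in WT, a log2 fold change of 0.30 (SE 0.14) or 1.23-fold. The lower rrp6Δ library of COS6 was close to the higher WT library, whereas COS4 and COS10 were well separated.

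COS9 was again slightly higher without overlap, at 1625 and 1709 in rrp6Δ, with a log2 fold change of 0.11 and a 95% interval of -0.12 to 0.34. COS1 had 1355 and 1607 in rrp6Δ, COS8 had 3085 and 3619, COS5 had 544 and 588, and COS7 had 754 and 801. These 4 genes overlapped with WT, with log2 fold changes of -0.10, -0.18, -0.05 and 0.11. None of the 5 passed a test in this comparison under any of the settings tried.

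In limma without the block, 0 of 8 COS genes passed, beside 0.175% of all genes, with adjusted p = 0.13 for COS4, 0.14 for COS10 and 0.37 for COS6, and 2 of the 8 had an unadjusted p under 0.05, as did 16.6% of all genes. With the block, COS4 (adjusted p = 0.0095), COS10 (adjusted p = 0.0099) and COS6 (adjusted p = 0.030) rose in limma, 3 of 8 higher beside 5.43% of all genes, and 0 of 8 were lower beside 6.04%. edgeR called 0 of 8 without the block (0.175% of all genes) and 3 of 8 with it (11.4% of all genes in either direction). DESeq2 without the block called COS4 (adjusted p = 0.00073) and COS10 (adjusted p = 0.00065) higher. This is 2 of 8 beside 3.17% of the 6155 genes to which DESeq2 gave an adjusted p, and COS6 had an adjusted p of 0.33. Both rrp6Δ libraries lay above both WT libraries in 4 of 8 COS genes beside 25.1% of all genes. Because both comparisons use the same 2 WT libraries, their values for the members are not independent of each other. Over both mutants together, all 4 mutant libraries lay above both WT libraries in 4 of the 8 COS genes (50.0%) and in 860 of all 6277 genes (13.7%).

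**Figure D5:**
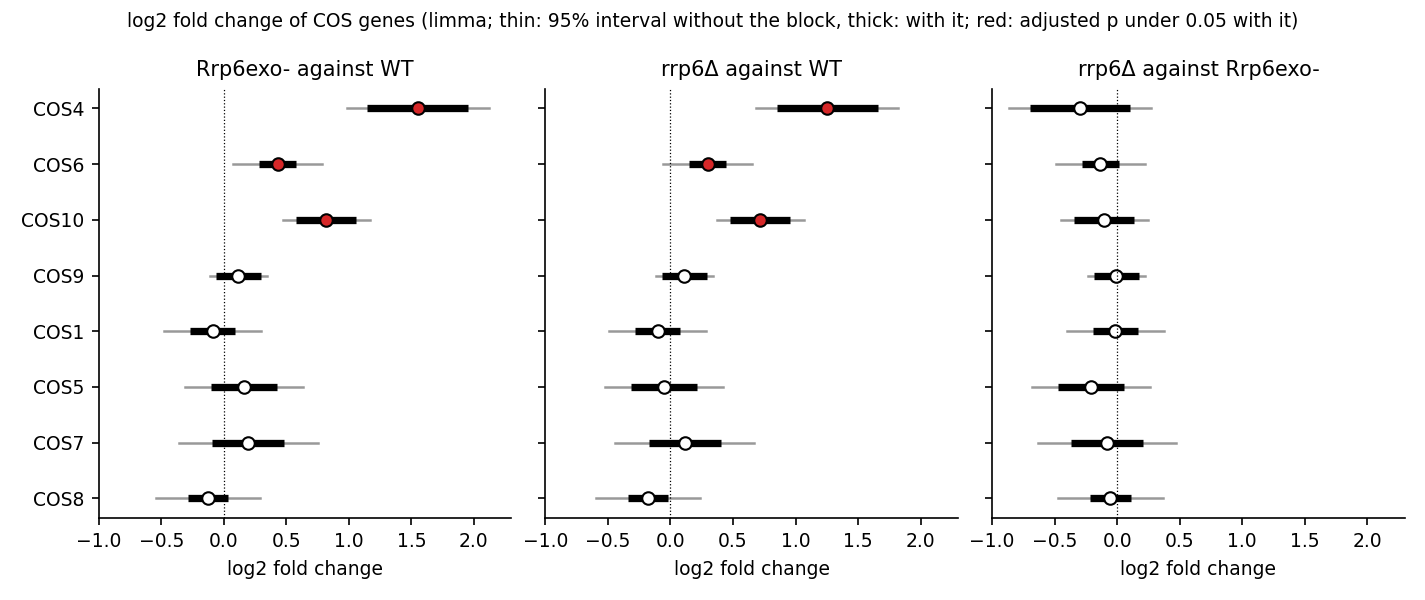
Log2 fold change of the 8 listed COS genes in the 3 comparisons (limma). Thin lines are 95% intervals without the replicate block, thick lines those with it, and red points have an adjusted p under 0.05 with it. COS4, COS6 and COS10 are red in both comparisons with WT, and no gene is red between the mutants.

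The third comparison asked whether the members differed between the inactive and the absent protein. All 8 log2 fold changes of rrp6Δ against Rrp6exo- were below 0, from -0.30 in COS4 to -0.01 in COS9, although rescaling the libraries to the same total put COS1 (0.031) and COS9 (0.039) above 0. Of the 8 genes, 0 passed in limma without the block, beside 0.0159% of all genes, the lowest adjusted p being 0.92. With the block 0 were lower, beside 0.0159%. DESeq2 called 0 of 8, beside 0.829% of the 5911 genes to which it gave an adjusted p. edgeR called 0 of 8 without the block (0.0159% of all genes) and 0 with it (0.0319%). None of the 8 had an unadjusted p under 0.05 in limma without the block, beside 5.46% of all genes. Only COS4 was lower without overlap, at 245 and 238 in rrp6Δ against 253 and 348 in Rrp6exo-, which is 1 of 8 beside 15.9% of all genes. The 95% interval of the difference, without the block, was -0.86 to 0.27 for COS4, -0.45 to 0.25 for COS10 and -0.49 to 0.22 for COS6. These intervals include differences as large as those of COS6 from WT, so they do not show that the mutants are alike.

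The scale of the libraries bears on the small differences. The median log2 fold change of the 8 COS genes was 0.18 in Rrp6exo- and 0.11 in rrp6Δ against WT, where the medians of all genes were 0.01 and 0.01, and -0.09 in rrp6Δ against Rrp6exo-, where it was 0.00. Rescaling the libraries to the same total moved the medians of all genes to 0.12, 0.16 and 0.05 and those of the COS genes to 0.29, 0.27 and -0.05. Under that scale the log2 fold changes of COS1 against WT, and of COS5 in rrp6Δ, changed sign. COS4 and COS10 passed in Rrp6exo- under it without the block (limma, adjusted p = 0.048 for each, 2 of 8 beside 0.589% of all genes) and did not in rrp6Δ (adjusted p = 0.085 and 0.075, 0 of 8 beside 0.398%).

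Most members also moved in the same direction between the 2 replicates of each strain. Replicate 2 was above replicate 1 in 7 of 8 COS genes in WT, 8 of 8 in Rrp6exo- and 7 of 8 in rrp6Δ, and the median log2 difference between the replicates was 0.31, 0.33 and 0.10, against medians of -0.01, 0.01 and -0.01 over all genes. COS9 in WT and COS4 in rrp6Δ were the exceptions. The share of all genes that were higher in replicate 2 was not counted. COS9 moved little, by -0.019 in WT, 0.053 in Rrp6exo- and 0.073 in rrp6Δ. COS10 moved by 0.0011 in WT, 0.38 in Rrp6exo- and 0.073 in rrp6Δ. In WT, COS10 was the steadiest member and COS7 the one that differed most, at 1386 and 1387 against 612 and 844. What the replicate numbers share beyond their label was not tested.

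Genes beside the members were examined next. Of the 14 listed genes that are the nearest to a member, 0 passed against WT without the block. The shares of all genes were 0.112% in Rrp6exo- and 0.175% in rrp6Δ. With the block 1 passed in Rrp6exo-, beside 12.7% of all genes in either direction, and 0 in rrp6Δ, beside 11.5%. These counts are no result about the neighbours. The gene that passed was SRY1, on the centromere side of COS9, which encodes 3-hydroxyaspartate dehydratase. It had a log2 fold change of 0.40 in Rrp6exo- (limma with the block, adjusted p = 0.021). AIF1, which encodes an apoptosis-inducing factor homologue and lies 1177 bases from COS10 on the opposite strand, had scaled counts of 1182 and 1091 in WT, 1305 and 1283 in Rrp6exo- and 1369 and 1294 in rrp6Δ. Its log2 fold changes were 0.19 and 0.23, smaller than those of COS10, and did not pass (adjusted p = 0.16 and 0.11 with the block). The nearest listed genes to COS4 were barely expressed, with DDI3 at 2.78 to 5.20 and YFL064C at 17.7 to 32.1 scaled counts over all libraries. PAU12, a seripauperin gene 915 bases from COS6, lay between 40.6 and 76.9 and did not pass.

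Of 236 other protein-coding genes within 20 kb of a chromosome end, COS12 among them, 176 had a row in the table. With the block 13 were higher and 12 lower in Rrp6exo- than in WT, and 7 were higher and 6 lower in rrp6Δ. These are shares near those of all genes, of which 5.70% were higher and 7.04% lower in Rrp6exo-, and 5.43% and 6.04% in rrp6Δ. Their median log2 fold changes were 0.06 and 0.06, beside 0.01 and 0.01 over all genes.

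COS12 (YGL263W), a further COS gene outside the 10 taken here, had 58.3% to 63.2% coding identity to them. Its scaled counts were 803 and 477 in WT, 829 and 833 in Rrp6exo- and 738 and 648 in rrp6Δ. Both Rrp6exo- libraries lay above both WT libraries, the rrp6Δ libraries lay between the WT libraries, and COS12 passed no test (adjusted p = 0.14 in Rrp6exo- and 0.57 in rrp6Δ with the block). Of the 10 genes of the related DUP240 family, which encodes small membrane proteins, 0 were higher with the block and 1, PRM9, was lower in both mutants, beside 7.04% of all genes lower in Rrp6exo- and 6.04% in rrp6Δ. PRM9, a pheromone-regulated gene, had 218 and 159 in WT, 102 and 69.6 in Rrp6exo- and 87.5 and 47.2 in rrp6Δ, with log2 fold changes of -1.13 and -1.52 (limma with the block, adjusted p = 0.015 and 0.0082). DFP2 and DFP3 of the same family had log2 fold changes of 0.39 and 0.18 in Rrp6exo- and of -0.02 and 0.39 in rrp6Δ and did not pass.

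Of 17 genes of the ESCRT machinery and its ubiquitin ligase and peptidase, which act in the same sorting step as Cos proteins, 0 passed in Rrp6exo-. With the block 12.7% of all genes passed there in either direction. In rrp6Δ 1 of the 17 was higher with the block, a share of 5.88% beside 5.43% of all genes, which is no result about the list. This was VPS20, an ESCRT-III subunit, with 710 and 521 in WT and 893 and 744 in rrp6Δ (log2 fold change 0.42, adjusted p = 0.042 with the block). VPS24, another ESCRT-III subunit, and DOA4, the deubiquitinating enzyme of the pathway, had log2 fold changes of 0.52 and -0.21 in Rrp6exo- and of 0.37 and -0.06 in rrp6Δ and did not pass. VPS24 rested on few reads, 17 and 17 in the WT libraries, 25 and 25 in Rrp6exo- and 17 and 31 in rrp6Δ. Of 12 genes of telomeric silencing and telomere binding, 1 was higher in each mutant with the block, a share of 8.33% beside 5.70% of all genes in Rrp6exo- and 5.43% in rrp6Δ, again near the background. These were RIF1, which binds telomeres with Rap1, at a log2 fold change of 0.28 in Rrp6exo- (adjusted p = 0.040), and HST1, a deacetylase related to Sir2, at 0.28 in rrp6Δ (adjusted p = 0.046). RIF2, which also binds telomeres with Rap1, had 0.32 and 0.30 and did not pass. Limma without the block made none of these calls, and DESeq2 without it made those of PRM9 (adjusted p = 0.018) and HST1 (adjusted p = 0.046) in rrp6Δ only.

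The genes most like the mean COS profile over the 6 libraries were YNL276C, SAK1, RKM5, GCN4 and YHR180W, taken as the 5 highest Pearson correlations among 5615 genes with a mean scaled count of at least 50. Their r ran from 0.98 to 0.99 on the log2 scale, a description over libraries that share strain and replicate number. The members themselves did not share 1 profile. Between pairs of members r ran from -0.23 (COS8 and COS10) to 0.98 (COS4 and COS10), so likeness to the mean is not likeness to every member. SAK1, a kinase that activates Snf1, lay between 8723 and 12019 scaled counts, and GCN4, the activator of amino acid synthesis genes, between 23990 and 29160. Their log2 fold changes in Rrp6exo- and rrp6Δ were 0.24 and 0.18 for SAK1 and 0.17 and 0.13 for GCN4. Those of the others were larger in Rrp6exo-, at 0.33 and 0.23 for YNL276C, 0.44 and 0.36 for RKM5 and 0.58 and 0.33 for YHR180W. YNL276C was low, between 51.1 and 75.8 scaled counts, and YHR180W lay between 101 and 195.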

How the data were processed

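Ribosomal RNA-depleted total RNA of 3 strains, 2 clones each, was sequenced as paired 50-base reads from stranded libraries. Per the labels and methods, the authors aligned the reads with STAR to sacCer3, used Picard (1.124), counted reads per gene with HTSeq (0.5.3) on the R64 annotation, and normalised with DESeq without pooling replicates. The strand setting and the handling of reads with several places are not given in the sources used here. The replicates are described as independent biological ones from individual clones. The deposited values are a signal, namely read counts divided by a size factor for the library. In each library 100% of the values were whole multiples of 1 read (tolerance 0.01 read), which gave a mean of 37.5 M reads per library (SD 2.08). All value columns were matched to samples by the library name in the label. Replicates of a strain were kept as separate libraries, since the chi-square of their reads over its degrees of freedom was 77.6 to 117.

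The main test was limma (version 3.58.1 under R 4.3.3). It fitted strain means to log2 of the scaled count plus 1 in the 6 libraries at once, with a mean-variance trend, two-sided, and Benjamini-Hochberg adjustment over all 6277 genes and a threshold of 0.05. The filter, a summed scaled count of at least 10, removed no gene, the lowest sum being 14.4. The alternatives were DESeq2 (1.42.0) and edgeR's quasi-likelihood test (4.0.16, also blocked) on the recovered reads, limma with the replicate number as a block, rescaling to the same total, pseudocounts of 0.5 and 10, a minimum mean of 10 per library, no trend, the 4 libraries compared only, and each library left out in turn. Fits were also run on simulated data. Those data held no effect shared by replicate number, so they cannot decide between fits with and without the block. Same-numbered libraries share a letter in their labels, and the difference of replicate 2 and 1 correlated across genes between strains (r of 0.55 for WT and Rrp6exo-, 0.59 for WT and rrp6Δ, 0.46 for Rrp6exo- and rrp6Δ). The numbers were read as pairing the libraries, and blocked values stand beside results whose call they change.

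Coordinates, sequences, windows and identities come from the RefSeq genome and annotation of the same assembly (R64). Members were taken by name, and the members and lists were chosen with earlier results of these data known. The named genes were the members, COS12, their nearest listed neighbours, and, in each list, those that passed or had the 2 largest changes. Calls made with the block in the lists were named after their values were seen.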

Additional observations from a re-analysis of the deposited data

How the results depend on the processing

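COS4 and COS10 kept a positive log2 fold change against WT under every alternative run, as did COS6 and COS9, and with each library left out in turn COS4 lay between 1.32 and 1.78 in Rrp6exo- and between 1.07 and 1.44 in rrp6Δ, COS10 between 0.63 and 1.01 and between 0.68 and 0.75, and no COS gene was called. The number of COS genes called, 0 in limma without the block, was 3 in each mutant against WT with the replicate block in limma or in edgeR, 2 in each with DESeq2, and 2 in Rrp6exo- when rescaled to the same total. The count stayed at 0 under the other alternatives. The cause was not tested.

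The median log2 fold change of the COS genes moved from 0.18 to 0.29 in Rrp6exo- and from 0.11 to 0.27 in rrp6Δ on rescaling, which shifts all genes, and to 0.19 in Rrp6exo- with edgeR, with or without the block. With 1 library left out it ranged from 0.034 to 0.39 in Rrp6exo- (0.034 without Rrp6exo- replicate 2, 0.39 without replicate 1, 0.05 without WT replicate 1 and 0.38 without WT replicate 2), from 0.00092 to 0.24 in rrp6Δ (0.00092 without WT replicate 1 and 0.24 without WT replicate 2), and from -0.28 to 0.054 between the mutants (0.054 without Rrp6exo- replicate 2).

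Signs changed only for genes not called in the same comparison. Rescaling gave COS1 0.020, 0.051 and 0.031 in Rrp6exo- against WT, rrp6Δ against WT and between the mutants, COS5 0.10 and DOA4 0.10 in rrp6Δ, COS9 0.039 between the mutants and DFP2 0.13 in rrp6Δ, which edgeR put at 0.019, DESeq2 at 0.013 and edgeR with the block at 0.0074. Leaving out 1 library ranged in Rrp6exo- from -0.23 to 0.051 for COS1, -0.022 to 0.34 for COS5, -0.047 to 0.44 for COS7, -0.30 to 0.047 for COS8, -0.49 to 0.85 for DFP3 and -0.044 to 0.42 for VPS20. In rrp6Δ it ranged from -0.23 to 0.019 for COS1, -0.23 to 0.13 for COS5, -0.12 to 0.34 for COS7, -0.22 to 0.53 for COS12, -0.41 to 0.36 for DFP2, -0.28 to 1.06 for DFP3 and -0.20 to 0.088 for DOA4. Between the mutants it ranged from -0.15 to 0.13 for COS1, -0.32 to 0.16 for COS7, -0.20 to 0.096 for COS8, -0.043 to 0.031 for COS9 and -0.29 to 0.087 for COS10. Over the genes followed singly, 693 alternative values kept direction and call, 30 gained a call and 42 changed sign.

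The depth, 34.2 to 39.5 M reads a library, gave COS4 90 to 335 reads. The limits include the 2 libraries per strain, the reads shared by near copies, whose handling is not given, and the WT libraries used in both comparisons. They also include the HIS3 and LEU2 differences between strains. Per the methods, RNA integrity varied between samples, and it was not part of the fits.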
